A study of Mus musculus with 3 samples.

Results

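The genes described here are Igf2, H19, Gtl2 (now named Meg3), Rian, Mirg, Dlk1, Peg3, Plagl1, Cdkn1c and Grb10, 10 imprinted genes of the mouse. They were taken by the gene names in the scanner files, and they are 10 of the 27677 gene names on the array design and 23 of its 41174 probes. The list was drawn up with results of these arrays known: the genes were chosen by their ratios between the dyes on the liver and stomach arrays and by their listing in the lung table. Those ratios are therefore descriptions without a test.

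The mice carry a transgene (Tg) for AID, activation-induced cytidine deaminase, an enzyme of B cells that deaminates cytosine in DNA. A liver tumour of an AID Tg mouse was set against nontumour liver of the same mouse, and a stomach tumour of an AID Tg mouse against its nontumour stomach, so both tissues of these pairs carried the transgene. A lung tumour from an AID Tg mouse was set against normal lung of a wild-type mouse, so in lung tumour and genotype cannot be told apart. Each pair was hybridised to 1 Agilent array with 2 dyes, with no replicate and no exchange of dyes. The promoter of the transgene, the strain and the age of the mice are not given in the sources used here. No difference below has a replicate check. With so few arrays the number of arrays sets the precision, and the errors given cover measurement only.

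In genomic imprinting a gene is expressed from the allele of only 1 parent. Igf2 (expressed from the paternal allele) and H19 (maternal) share enhancers and a differentially methylated region that binds CTCF. In the Dlk1-Dio3 domain the noncoding RNAs Gtl2, Rian and Mirg come from the maternal allele and Dlk1 from the paternal one. Many of these genes are abundant in the fetus and low in most adult tissues, and in liver Igf2, H19 and the fetal serum protein Afp decline after birth and can return in liver tumours.

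RefSeq windows of 250 bases before to 50 bases after a transcription start (build GRCm38.p6) matched 8 of the 10 genes, with 13 windows. The windows below belong to the pair of genes with the largest liver ratio in each domain, and each was chosen because it held a match to a searched motif. The 2 Igf2 windows are chr7:142658755-142659054 and chr7:142657447-142657746 on the minus strand, and the Gtl2 window is chr12:109540746-109541045 on the plus strand. Capitals mark matches on either strand to the letters of a promoter element. The letters GGGCGG are those of the GC-rich element that Sp1 can bind. The second element searched was the one at which NF-Y can bind, CCAAT. The last was the element of the TATA-binding protein, TATAAA.
Igf2, RefSeq start 3: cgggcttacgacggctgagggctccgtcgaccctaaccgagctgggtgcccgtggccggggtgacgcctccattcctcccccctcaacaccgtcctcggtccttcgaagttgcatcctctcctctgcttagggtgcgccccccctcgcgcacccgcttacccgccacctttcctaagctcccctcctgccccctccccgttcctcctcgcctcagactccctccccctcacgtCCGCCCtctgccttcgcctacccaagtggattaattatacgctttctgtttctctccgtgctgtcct
Igf2, RefSeq start 4: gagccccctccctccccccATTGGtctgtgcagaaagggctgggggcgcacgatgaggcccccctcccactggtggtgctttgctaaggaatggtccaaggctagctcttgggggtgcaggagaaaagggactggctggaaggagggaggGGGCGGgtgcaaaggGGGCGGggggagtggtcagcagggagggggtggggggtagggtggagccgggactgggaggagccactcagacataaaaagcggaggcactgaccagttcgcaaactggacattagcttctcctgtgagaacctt
Gtl2 (Meg3), RefSeq start 1: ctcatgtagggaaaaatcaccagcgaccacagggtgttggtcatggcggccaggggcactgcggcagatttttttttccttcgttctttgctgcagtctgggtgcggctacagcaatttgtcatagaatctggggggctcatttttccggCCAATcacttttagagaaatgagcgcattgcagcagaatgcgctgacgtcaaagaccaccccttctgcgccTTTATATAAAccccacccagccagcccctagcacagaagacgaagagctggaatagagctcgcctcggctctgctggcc

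The Gtl2 window held 2 overlapping TATAAA matches, 1 per strand, first bases at -29 and -25 from the start, and a CCAAT match at -100. The first Igf2 window held a GGGCGG match at -17 and the other held such matches at -100 and -85 with a CCAAT match at -231. Among all 32851 RefSeq windows, 13.6% held TATAAA, 35.7% GGGCGG and 37.4% CCAAT, so the matches are common. CpG pairs numbered 24 and 7 in the Igf2 windows and 13 in the Gtl2 window, beside a median of 7 over all windows.

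The transcripts of these loci are also hosts of miRNAs, which the arrays did not measure. By RefSeq coordinates, 2 mature miRNAs lie in Igf2, 2 in H19, 3 in Gtl2, 6 in Rian and 19 in Mirg. The lines below give examples from each host, to show what these transcripts carry, with the seed (bases 2 to 8) in capitals. In the order of the lines they start at 142654968 and 142577112 on chromosome 7 and at 109563710, 109618305, 109743764, 109735669 and 109739132 on chromosome 12.
mmu-miR-483-5p (in Igf2): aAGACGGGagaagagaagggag
mmu-miR-675-5p (in H19): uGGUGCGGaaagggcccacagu
mmu-miR-770-5p (in Gtl2): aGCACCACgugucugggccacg
mmu-miR-370-3p (in Rian): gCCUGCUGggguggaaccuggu
mmu-miR-410-3p (in Mirg): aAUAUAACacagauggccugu
mmu-miR-453 (in Mirg): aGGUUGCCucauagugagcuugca
mmu-miR-496a-5p (in Mirg): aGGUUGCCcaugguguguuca
The last pair, both in Mirg, share the seed GGUUGCC. It was the seed found most often in that host, and the 19 mature miRNAs of Mirg had 18 different seeds.

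The direction of the ratios is not settled by the sources. According to the dye labels each tumour was in Cy3. The authors' deposited table, however, heads its lists of spots brighter in Cy5 as up in tumour tissue. Ratios are given as log2(Cy5/Cy3), and a positive ratio is called Cy5-high. The design text points to that table, and on its headings the tumour was likely in Cy5. If the dye labels are right instead, every sign below turns.

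Each array had 41534 gene spots, and 82.3% to 90.0% of them were well above background in a channel by the scanner software's flag. Markers of the labelled tissue were present. All 11 hepatocyte genes on the design had a raw signal over 1000 in the liver hybridisation, and 0 did in stomach; 9 of 11 gastric gland genes did so in stomach and 2 in liver. Lung is described from the authors' deposited table alone, and its scanner values are not analysed here.

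On the liver array 3 of the 10 genes were at least 2-fold Cy5-high: the growth factor Igf2, H19 and Gtl2. The same was true of 0.152% of the 25606 genes measured. No member was 2-fold Cy3-high, against 0.0703% of all genes. The median ratio of the 10 genes was 0.43, beside 0.01 over all genes. On the stomach array no member was 2-fold Cy5-high, against 0.873% of all genes, and Gtl2 and Cdkn1c, 2 of the 10, were 2-fold Cy3-high, against 1.41% of the 25322 genes measured. With median centring the Gtl2 mean was -0.91, just under 2-fold, and Cdkn1c alone passed. The median of the members there was -0.33, beside 0.0012 over all genes.

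By probe, 22 of the 23 passed the filter on dim spots in liver (a signal flagged well above background in either channel). Of these, 7 were 2-fold Cy5-high, against 0.181% of all probes, and 0 were 2-fold Cy3-high, against 0.0719%. In stomach all 23 passed, and 3 were 2-fold Cy3-high, against 1.47% of all probes, and 0 Cy5-high, against 0.956%. A ratio above 0 was found for 19 of 22 probes in liver, where 52.2% of all probes had one (47.8% lay below 0). The count was 17 of 22 when the arrays were only centred on their median, and also with the scanner software's ratio. A ratio below 0 was found for 22 of 23 probes in stomach, where 48.9% of all probes had one (51.1% lay above 0). The count was 18 of 23 with median centring and 22 of 23 with the scanner software's ratio. The shares of all probes are those of the main normalization, not of the other scalings. Most of the member ratios were small. The ratio exceeded the scanner software's error for 9 member probes in liver, against 11% of all gene spots, and for 6 in stomach, against 18.4%. That error belongs to the scanner software's own ratio. The normalized ratio set against it here and below is closer to 0 for many dim probes.

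**Figure D1:**
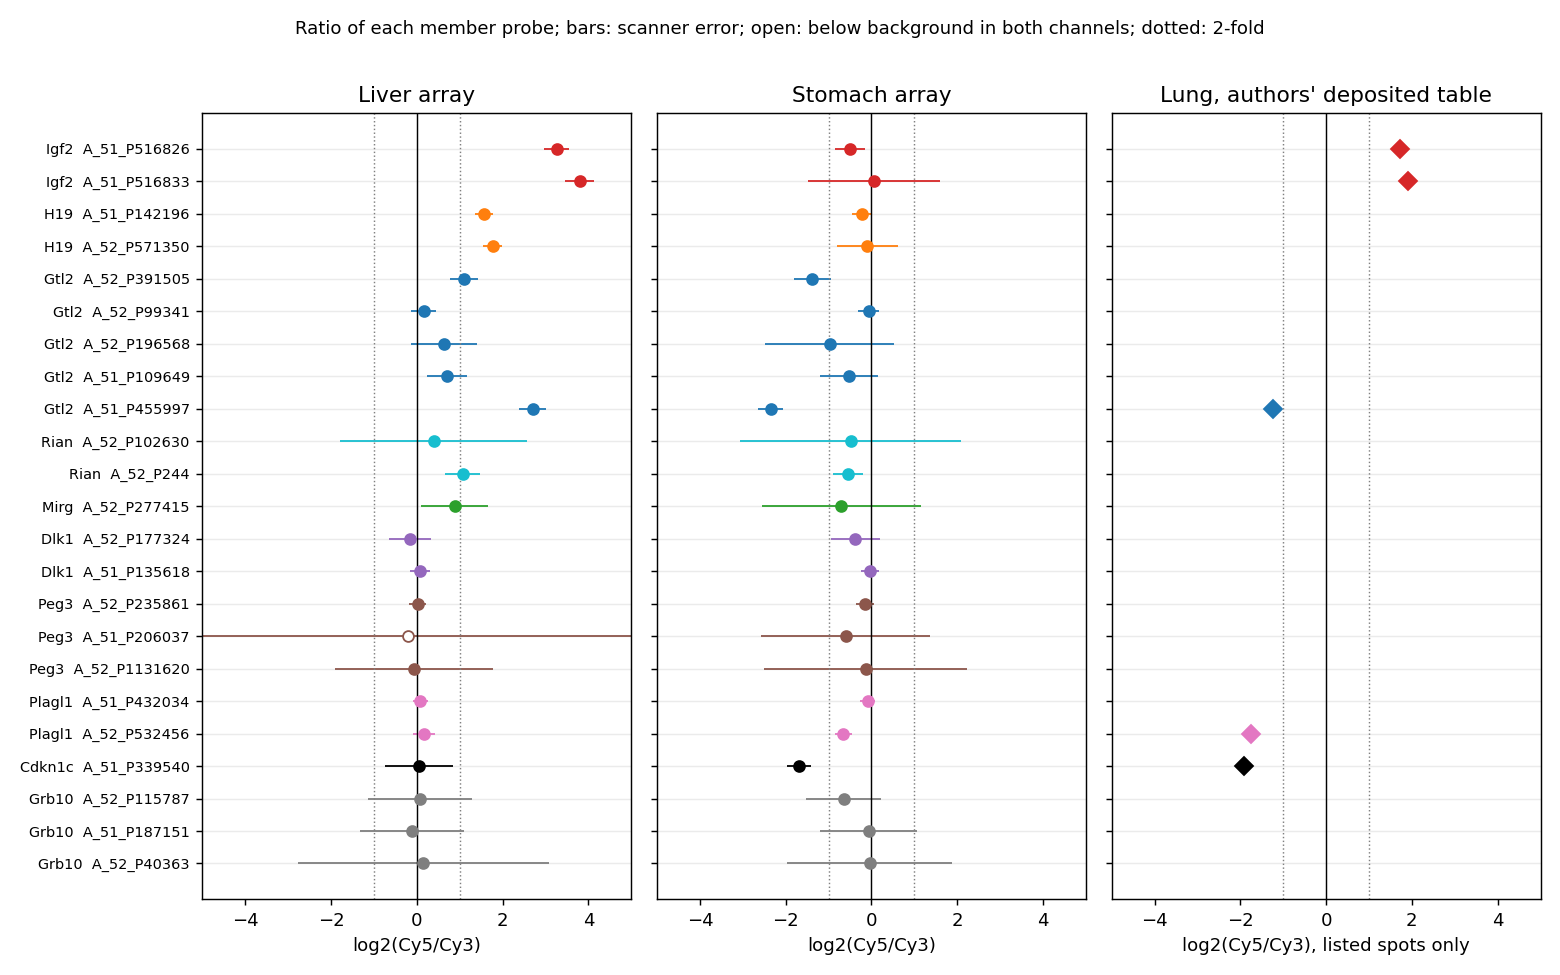
Log2(Cy5/Cy3) of each of the 23 member probes on the liver and stomach arrays and, for the 5 probes listed there, in the authors' deposited lung table. Bars are the scanner software's error, the open point did not pass the filter, and dotted lines mark 2-fold. Igf2, H19 and part of the Gtl2, Rian and Mirg probes lie to the right in liver. The Gtl2 and Cdkn1c probes past the dotted line in stomach lie to the left.

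Igf2 encodes insulin-like growth factor 2, which signals through the IGF1 receptor and is cleared by the IGF2 receptor. Probe A_51_P516833, on chromosome 7 at 139078490 to 139078549 of the files' coordinates, had a raw liver signal of 783 in Cy3 and 15600 in Cy5. Probe A_51_P516826, at 139078075 to 139078135, read 2860 and 42500. Both Cy5 signals lay far above the Cy3 signals, and both channels lay above the negative control spots, whose medians were 127 in Cy3 and 67.7 in Cy5. After normalization the log2 ratios were 3.80 (scanner error 0.34) and 3.26 (error 0.30), or 13.9-fold and 9.60-fold. The mean over both probes was 3.53 (SD 0.38 between 2 probes), and 1 of the genes measured in liver was higher.

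In stomach both Igf2 probes were dim. A_51_P516833 read 137 in Cy3 and 101 in Cy5, and A_51_P516826 read 253 and 230, with negative control medians of 119 and 68.4. Their ratios were 0.05 (error 1.53) and -0.50 (error 0.36), so the probe that lies nearer the controls had an error far larger than its ratio. The mean was -0.22 (SD 0.39 between 2 probes). In the authors' deposited table both Igf2 probes stand in the lung up list, which holds 5.51% of all gene spots, with log2 ratios of 1.92 and 1.72, or 3.78-fold and 3.30-fold. Igf2 was thus Cy5-high on both probes in liver and in the authors' deposited table for lung, and its stomach values were at a low signal.

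H19 is a noncoding RNA whose gene lies beside Igf2, 74.5 kb from the nearest Igf2 probe. In liver, probe A_51_P142196, on chromosome 7 at 139003144 to 139003203, read 1470 in Cy3 and 6490 in Cy5. Probe A_52_P571350, at 139003393 to 139003540, read 702 and 3350. Both were brighter in Cy5, with log2 ratios of 1.56 (error 0.20) and 1.77 (error 0.21) and a mean of 1.66 (SD 0.14 between 2 probes). The scatter between the H19 probes was smaller than between the Igf2 probes, and 9 measured genes were higher. In stomach the pair had ratios of -0.22 (error 0.24) and -0.09 (error 0.72), which lie within their errors. The scanner software's own stomach ratio for A_51_P142196 was -0.31, beyond its error. Median centring put the stomach mean of H19 at 0.02 in place of -0.16, so its sign there depended on the scaling. Neither H19 probe is in the lung lists of the authors' deposited table, which begin at 2-fold, so its lung ratio is not known here.

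**Figure D2:**
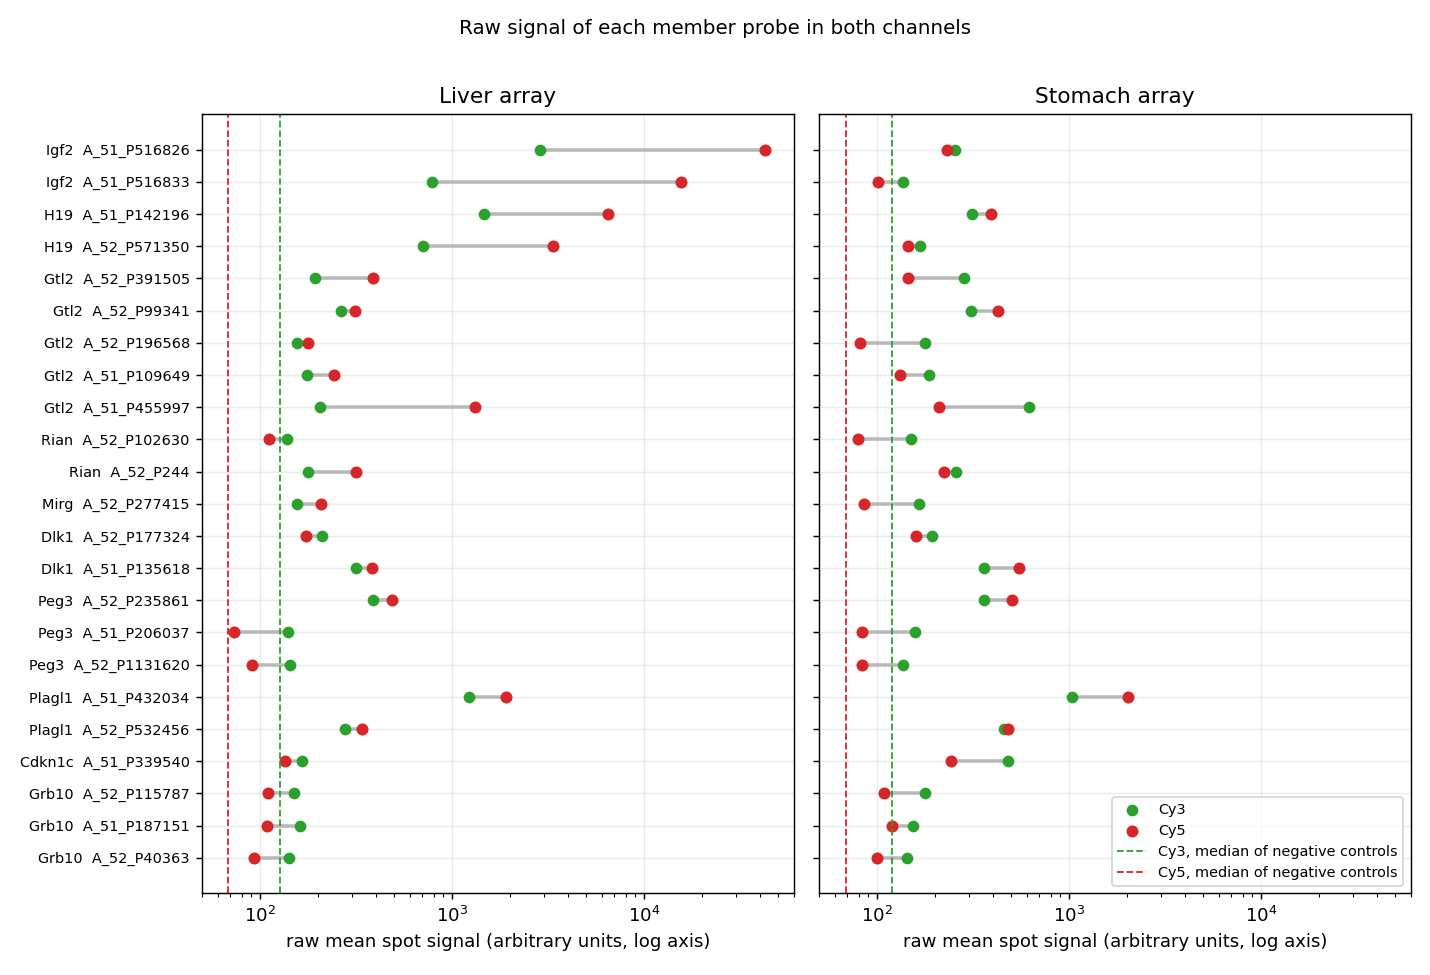
Raw mean spot signal of each member probe in Cy3 (green) and Cy5 (red) on a log axis, for the liver and the stomach array. Dashed lines are the medians of the 314 negative control spots of each array and channel. The Igf2 and H19 probes stand far above the controls in liver, and the Igf2 probe A_51_P516833 lies close to them in stomach.

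Gtl2, known as Meg3, is a long noncoding RNA made from the maternal allele, and in cultured human cells it restrains growth. It was measured by 5 probes that gave unequal ratios. The probe farthest along the gene, A_51_P455997 on chromosome 12 at 107092697 to 107092756, read 206 in Cy3 and 1320 in Cy5 in liver and 621 and 209 in stomach. Its brighter channel thus changed from Cy5 in liver to Cy3 in stomach. The log2 ratio was 2.70 (error 0.32) in liver and -2.35 (error 0.30) in stomach, or 6.51-fold and 5.11-fold. In the authors' deposited table this probe is also in the lung down list, with a log2 ratio of -1.24, a list that holds 9.78% of all gene spots. No other Gtl2 probe and no Rian or Mirg probe is in the lung lists, so their lung ratios are not known here.

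Probe A_52_P391505, whose coordinates span 8486 bases from 107070994 to 107079479, moved the same way at smaller size. It read 194 in Cy3 and 389 in Cy5 in liver and 282 and 144 in stomach, with ratios of 1.11 (error 0.33) and -1.38 (error 0.43). The remaining probes were closer to 0. A_51_P109649 had 0.70 (error 0.46) in liver and -0.53 (error 0.68) in stomach, and A_52_P196568 had 0.63 (error 0.76) and -0.98 (error 1.50). The scanner software's own ratios were 1.07 and -0.99 for A_51_P109649 and 1.41 and -2.91 for A_52_P196568, each larger than its error. A_52_P99341, at 107080192 to 107080251, read 264 in Cy3 and 313 in Cy5 in liver and 308 and 426 in stomach, with ratios of 0.16 (error 0.29) and -0.06 (error 0.24). It lies between the other Gtl2 probes, and unlike the pair with the largest ratios it stayed within its error on both arrays.

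The Gtl2 mean was 1.06 in liver (SD 0.98 between 5 probes) and -1.06 in stomach (SD 0.87 between 5 probes). These means rest on probes that disagree by nearly as much as the means themselves. With the brightest probe in place of the mean, Gtl2 was 2.70 in liver and -2.35 in stomach. On the liver array 36 genes were higher than the Gtl2 mean, and on the stomach array 325 genes were lower.

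Rian and Mirg are noncoding RNAs downstream of Gtl2, transcribed in the same direction. Rian carries small nucleolar RNAs and miRNAs, and Mirg carries miRNAs such as those printed above. Rian probe A_52_P244, on chromosome 12 at 107180614 to 107180673, read 177 in Cy3 and 316 in Cy5 in liver and 256 and 224 in stomach. Its ratios were 1.07 (error 0.42) and -0.55 (error 0.35), each larger than its error, but with median centring the stomach ratio was -0.31, within its error. Rian probe A_52_P102630, at 107172103 to 107172162, read 138 and 111 in liver and 150 and 79.7 in stomach, close to the negative controls. In liver only its Cy5 signal was well above background, and in stomach only its Cy3 signal was. Its ratios were 0.39 (error 2.18), or 1.31-fold, in liver and -0.49 (error 2.57), or 1.40-fold the other way, in stomach. Both lie within their errors, and no lower bound could be set.

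The Mirg probe A_52_P277415, at 107261346 to 107261405, read 156 in Cy3 and 208 in Cy5 in liver, with a ratio of 0.88 (error 0.78). In stomach it read 165 and 85.3, with a ratio of -0.70 (error 1.86). The liver value is just over its error and the stomach value is well within it. The scanner software's own ratios, to which these errors belong, were 2.29 in liver and -1.93 in stomach, each larger than its error. The gene means of Rian were 0.73 (SD 0.48 between 2 probes) in liver and -0.52 (SD 0.04) in stomach.

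Across Gtl2, Rian and Mirg, 8 of 8 probes had a ratio above 0 in liver, with a median of 0.79, and 5 of them exceeded their error. In stomach 8 of 8 had a ratio below 0, with a median of -0.63, and 3 exceeded their error. With the scanner software's own ratio, A_52_P196568 also exceeded its error on both arrays, and A_51_P109649 and the Mirg probe did so in stomach. The liver count was 8 of 8 under each of the 3 other scalings, and the stomach count was 7 of 8 with median centring, where A_52_P99341 had 0.33. Probes of 1 transcript share their RNA and are not independent. The authors' deposited table has 4 of the 8 in its liver up list (both Gtl2 probes with the largest ratios, A_52_P244 and the Mirg probe) and both of those Gtl2 probes in its stomach down list. These lists hold 1.25% and 3.33% of all gene spots. No member probe is in its liver down list, which holds 1.04%, or in its stomach up list, which holds 4%.

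Dlk1, a membrane protein with EGF-like repeats found on fetal and progenitor cells, is a paternally expressed gene of that domain. Its probes read 174 to 381 in Cy5 and 209 to 317 in Cy3 in liver, with ratios of -0.16 (error 0.48) and 0.07 (error 0.24). In stomach they had -0.37 (error 0.57) and -0.02 (error 0.21). All 4 values lie within their errors, and no Dlk1 probe is in the authors' deposited table. The scanner software's own stomach ratio for A_52_P177324 was -0.59, just over its error of 0.57. The Dlk1 mean was -0.04 (SD 0.16 between 2 probes) in liver, where the Gtl2 mean was 1.06.

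**Figure D3:**
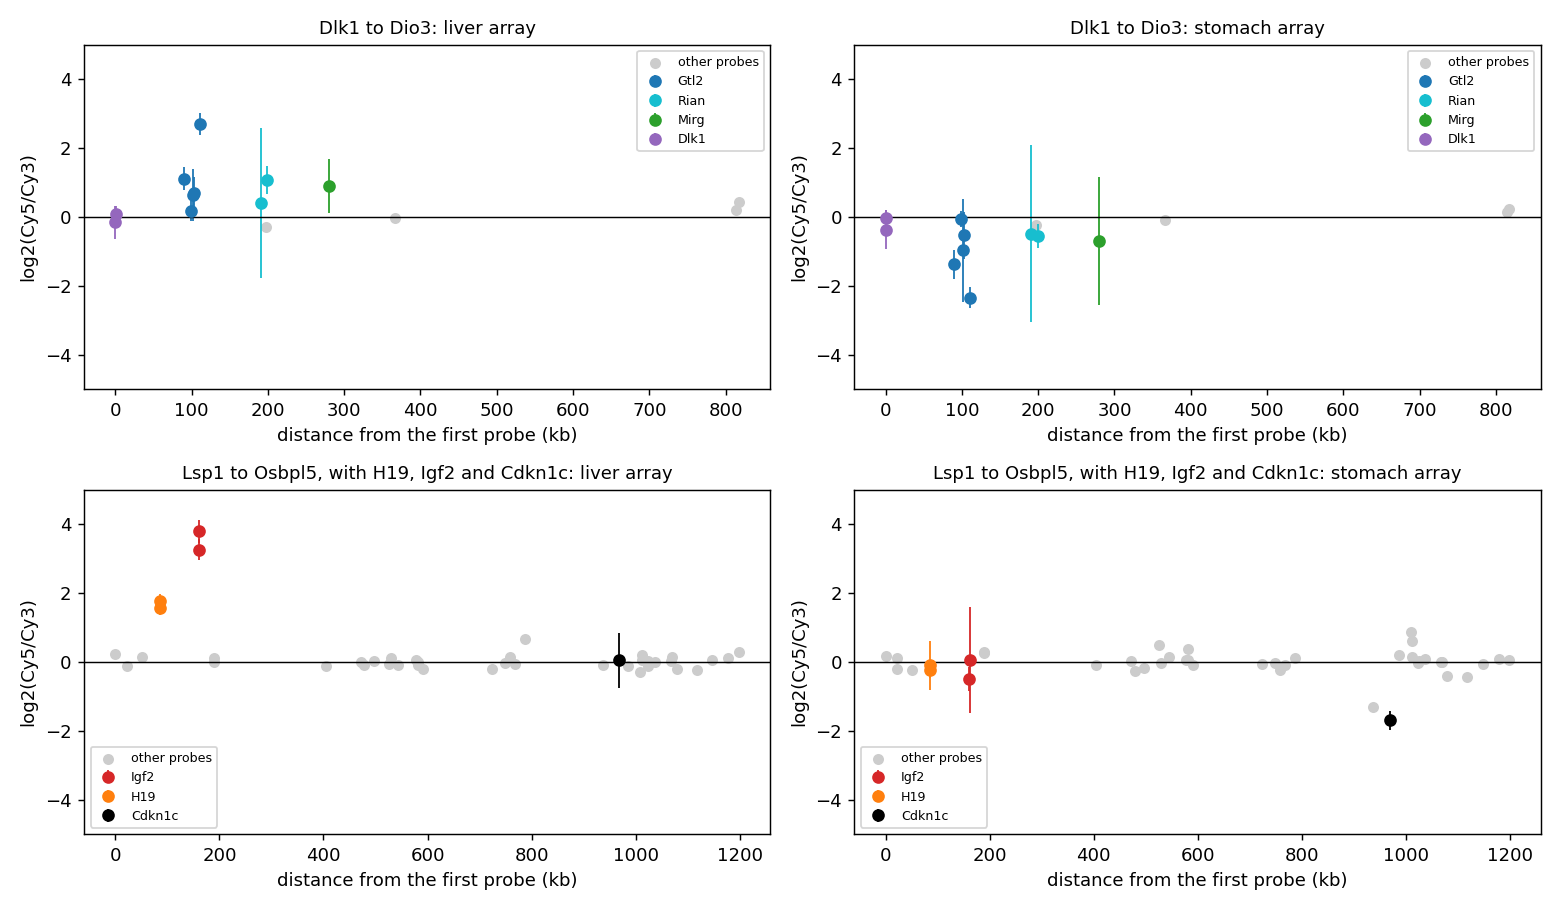
Log2(Cy5/Cy3) of the probes that passed the filter along the Dlk1 to Dio3 domain (upper row) and from Lsp1 to Osbpl5 (lower row), by distance from the first probe in kb, for liver (left) and stomach (right). Coloured points are members with the scanner error, and grey points are other probes. In liver the members that stand off are H19 and Igf2 below and part of the Gtl2, Rian and Mirg probes above, while Dlk1 and Cdkn1c sit near 0.

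The genes that lie between and beside the members mostly had ratios near 0. They were taken by position, whereas the members were chosen by their ratios. From Dlk1 to Dio3 the design holds 7 other probes, of which 4 passed the filter, and their liver ratios ran from -0.29 to 0.43. Dio3, an imprinted deiodinase that inactivates thyroid hormone, had 0.43 with an error of 2.97. From Lsp1 to Osbpl5 there are 38 other probes. In liver 36 passed and ran from -0.29 to 0.67, and none was 2-fold. The highest was Kcnq1ot1, the noncoding RNA that silences part of the Cdkn1c domain, at 0.67 (error 0.34). In stomach 37 passed, and 1 was 2-fold Cy3-high, a probe of the potassium channel gene Kcnq1 at -1.30 (error 0.20). It is the probe next to that of Cdkn1c on one side.

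Cdkn1c, which encodes the cyclin-dependent kinase inhibitor p57, restrains growth and is made from the maternal allele. Its probe A_51_P339540, on chromosome 7 at 139886128 to 139886187, read 165 in Cy3 and 134 in Cy5 in liver, with a ratio of 0.05 (error 0.80). In stomach it read 481 and 243, with a ratio of -1.69 (error 0.27), or 3.23-fold brighter in Cy3. By gene means it was the lowest member in stomach, and 129 measured genes were lower, while Gtl2 probe A_51_P455997 was lower as a single probe, at -2.35. In the authors' deposited table it stands in the stomach down list at -2.07 and in the lung down list at -1.91, or 3.76-fold. Cdkn1c was thus Cy3-high in stomach and, in the authors' deposited table, in lung, by 1 probe, and within its error in liver.

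Grb10 is an adaptor of the insulin and IGF1 receptors that limits growth. Its 3 probes had ratios from -0.11 to 0.15 in liver and from -0.65 to -0.05 in stomach, all within their errors. The scanner software's own stomach ratio for A_52_P115787 was -1.44, beyond its error of 0.87. None is in the lung lists of the authors' deposited table.

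Plagl1 encodes a zinc-finger transcription factor that slows the cell cycle and regulates other imprinted genes. Probe A_51_P432034, on chromosome 10 at 12830021 to 12830080, read 1220 in Cy3 and 1900 in Cy5 in liver and 1030 and 2020 in stomach, and its ratios of 0.08 (error 0.17) and -0.09 (error 0.17) lie within the error. Probe A_52_P532456, at 12831831 to 12831890, read 275 and 340 in liver and 456 and 481 in stomach. Its ratio was 0.17 (error 0.26) in liver and -0.65 (error 0.21) in stomach, so the probes differ in stomach. The authors' deposited table lists that second probe in the stomach down list at -0.76 and in the lung down list at -1.75, or 3.37-fold, and does not list the first. The stomach mean of -0.37 became 0.22 with median centring.

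Peg3, a paternally expressed zinc-finger gene, had 3 probes. In liver 1 of them, A_51_P206037, was not well above background in either channel, with raw signals of 140 and 72.8. The other probes had -0.06 and 0.02. In stomach the 3 ratios ran from -0.60 to -0.14, all within their errors, and no Peg3 probe is in the authors' deposited table. The scanner software's own stomach ratio for A_51_P206037 was -2.08, just over its error of 1.98.

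**Figure D4:**
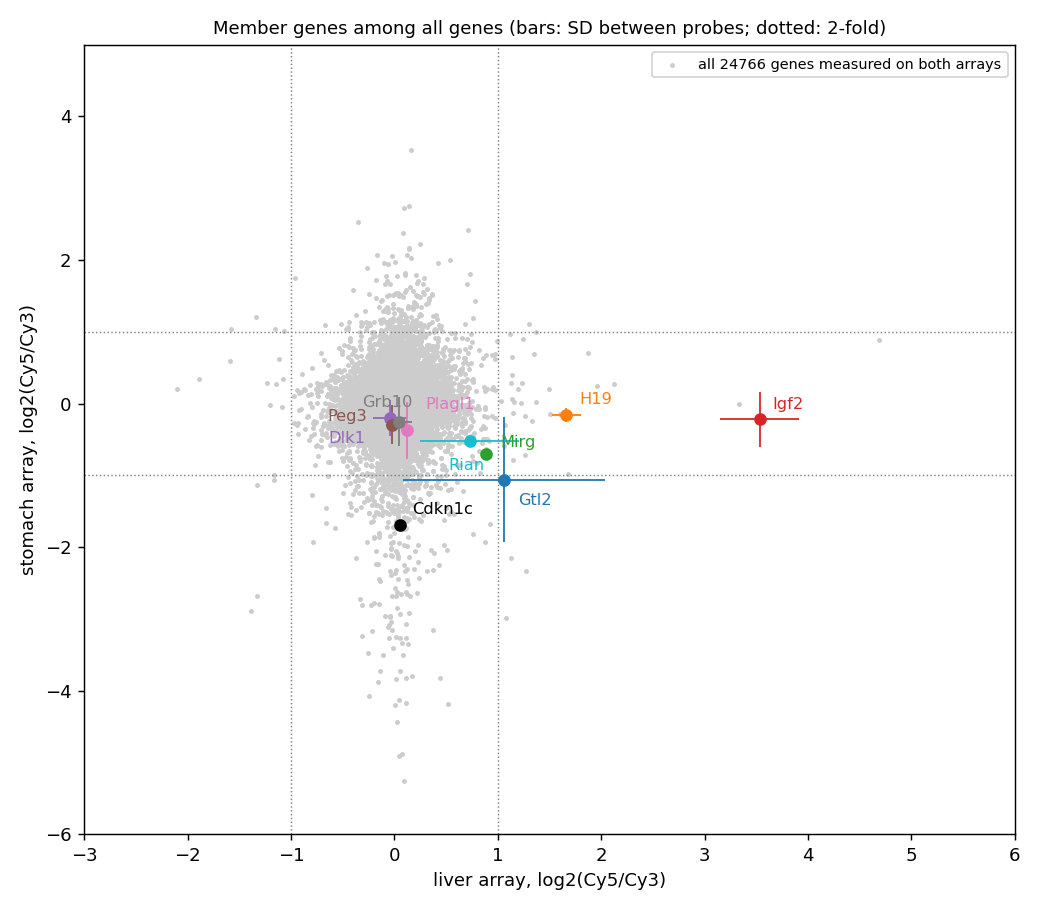
Mean log2(Cy5/Cy3) of each member gene on the liver array (horizontal axis) and the stomach array (vertical axis) among the 24766 genes measured on both. Bars are the SD between probes of a gene, and dotted lines mark 2-fold. Igf2 and H19 lie far right at a stomach ratio near 0, Gtl2 lies right and low, and Cdkn1c lies low at a liver ratio near 0.

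Over all 24766 genes the ratios of both arrays had a Pearson r of 0.104, given as a description across genes. Of the 10 member means, 8 were above 0 in liver and 10 below 0 in stomach (7 with median centring, where H19, Dlk1 and Plagl1 turned). The difference between organs was not tested. The genes nearest to Igf2 on the pair of ratios (over 2 arrays, by Euclidean distance) were Ly6d (3.33 and -0.01), the sulfotransferase gene Sult2a2 (2.13 and 0.27) and Afp (4.69 and 0.88). Nearest to H19 were the actin-severing Gsn (1.60 and -0.15), Igfbp6 (1.51 and -0.14) and the glutathione transferase gene Gstm2 (1.37 and 0.02). Nearest to Gtl2 were 6030422H21Rik (0.82 and -0.97), Tceal9 (1.15 and -0.79) and the calcium-binding S100a8 (0.80 and -0.83). Nearest to Cdkn1c were Sbsn, a gene of keratinocytes (0.06 and -1.69), Serpinb12 (0.03 and -1.69) and the unnamed transcript NAP046356-1 (0.05 and -1.72).

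Other imprinted genes did not show ratios of the size of Igf2. The members were chosen by their ratios on these arrays, so a contrast with other genes follows in part from that choice. Of 35 measured in each organ, 1 was 2-fold Cy5-high in liver and 0 in stomach, and 0 were Cy3-high in either. Their medians were 0.03 in liver and -0.06 in stomach. The 1 gene was Impact, a regulator of the stress kinase GCN2, at 1.03 (error 0.21) in liver. The matrix proteoglycan gene Dcn followed at 0.64 (error 0.17) in liver and had -0.48 (error 0.17) in stomach, and Igf2r, which encodes the receptor that clears IGF2, had 0.47 (error 0.19) in liver. In lung, 4 genes of this list are in the up list of the authors' deposited table and 8 in its down list, among them Impact at -1.14 and Dcn at -1.74.

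Of the 17 named neighbours of Igf2, H19 and Cdkn1c, none was 2-fold as a gene mean on either array, with medians of 0.05 and 0.06. In stomach Kcnq1 had -0.69 (SD 0.86 between 2 probes) and the transporter gene Slc22a18 0.54 (SD 0.47 between 2 probes). The lung lists of the authors' deposited table hold 3 of these 17 genes as up, Phlda2, Slc22a18 and Kcnq1, and 3 as down, Kcnq1ot1, Lsp1 and Tspan32. Phlda2, which limits placental growth, stands there at 1.46 and 2.36, Slc22a18 at 2.04 and Kcnq1ot1 at -2.66. Both the Cdkn1c probe and Kcnq1ot1 are therefore in the lung down list, while Phlda2 of the same domain is in the up list. Of 5 measured neighbours of the Dlk1 domain, none was 2-fold, and the tRNA synthetase gene Wars was highest, at 0.93 (SD 0.48 between 2 probes) in stomach.

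In the IGF axis 1 of 16 measured genes was 2-fold Cy5-high in liver. It was Igfbp6, which encodes a binding protein that prefers IGF2, at 1.51 (error 0.23). In stomach 1 of 17 was 2-fold Cy3-high, the binding protein gene Igfbp2 at -1.52 (error 0.30), and Igf1r, the receptor through which IGF2 signals, had -0.96 (SD 0.72 between 4 probes). The list medians were -0.02 and -0.14. The growth factor gene Igf1 had -0.19 (SD 0.27 between 3 probes) in liver, where Igf2 had 3.53. In the authors' deposited table Igfbp3 was the 1 gene of this list with lung up entries, at 1.46 and 2.22, and 6 genes had down entries, among them Igfbp2 at -3.39, Igfbp6 at -2.45 and Igf1r at -3.26 and -1.39.

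Of 16 measured genes of imprint maintenance and DNA methylation, none was 2-fold on either array. The medians were 0.07 in liver and 0.20 in stomach. In liver the largest ratios in size were those of Trim28 (-0.40, error 0.22), which holds methylation at imprinted regions with Zfp57, and Dnmt1, the maintenance methyltransferase (0.34, error 1.19). In stomach Uhrf1, the partner of Dnmt1, had 0.94 (SD 0.47 between 2 probes), and Hells 0.76 and Ezh2 0.74. The 10 cell cycle genes had a stomach median of 0.90, with 5 of them 2-fold Cy5-high.

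Some markers of other cells also had ratios away from 0 on these arrays, and their part in the members' ratios was not tested. In a tissue sample fewer cells of a type and less RNA per cell cannot be told apart. In liver all 10 fibroblast and stroma genes had ratios above 0, from 0.06 to 0.66 with a median of 0.28, and none reached 2-fold. Of the 9 measured fetal liver and hepatoblast markers, 2 were 2-fold Cy5-high, Afp at 4.69 (error 0.44) and Ly6d at 3.33 (error 0.32), while the highest of the other 7 was Gpc3 at 0.27 (error 0.92). Of the 9 measured hepatocyte genes 8 were below 0, with a median of -0.31.

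In stomach, where Gtl2 and Cdkn1c were Cy3-high, 5 of 10 smooth muscle genes were 2-fold Cy3-high, with a median of -1.26 and a range from -2.51 to 0.09. The same was true of 9 of 10 squamous epithelium genes, with a median of -2.37 and a range from -4.20 to -0.30, and of 7 of 11 gastric gland genes, with a median of -3.50 and a range from -5.26 to 1.17. Of 8 fat genes 2 were 2-fold Cy3-high, Cfd at -3.82 and Fabp4 at -1.54, and of 8 exocrine pancreas genes 2 were, Clps at -2.68 and Pnliprp1 at -1.54. Endothelial genes had a median of -0.09, and fibroblast genes 0.17. In lung, Gtl2, Plagl1 and Cdkn1c each have a probe in the down list of the authors' deposited table. All 10 endothelial genes, 6 of 8 lung epithelium genes and 5 of 10 smooth muscle genes are in that list too. So are 4 of 10 fibroblast and stroma genes, with 1 in the up list. The down list holds 9.78% of all gene spots, and a gene counts as listed by any of its probes.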

How the data were processed

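The members, gene lists and tests were chosen with earlier results of these data known. Amplification and labelling started from 500 ng of RNA, per the labels' protocols. The submitters' processing notes name Agilent Feature Extraction 8.5.1.1. The authors deposited intensity values that are, per the file headers, mean spot signals and median local backgrounds, not normalized, and processed intensities corrected for background and dye. The deposited log10 ratio is Cy5 over Cy3 processed intensity with its error, and the deposited p-value tests it under the scanner's error model for 1 spot, per the file headers. The authors' deposited table gives log10 ratios of listed spots by spot number. Its liver and stomach values equal the scanner ratios, all with a scanner p-value of at most 0.01, and its lung lists begin at 2-fold. For the probe coordinates, no genome build is named in the labels or file headers used here.

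From these, backgrounds were corrected with normexp (offset 50) and each array was normalized by loess in limma 3.58.1 (R 4.3.3), with control spots at weight 0. The steps were tested on simulated data with changes planted only in gene spots brighter than the median. Recovery of changes in dim probes was therefore not tested. The offset pulls ratios of dim probes towards 0. Control spots and outlier flags were removed, and a probe was kept if either channel was flagged well above background and not both were saturated. A gene's value is the mean over its measured probes. Errors are the scanner software's error of the log10 ratio on the log2 scale, or the SD between probes. The scanner error belongs to the scanner software's own ratio, not to the normalized ratio it is set beside. Where a probe was not well above background in the dim channel, a bound was sought against the lowest signal flagged well above background. For such member probes their own signal was higher, so the plain fold is given and is no bound. Dye bias can shift it. No test was made, since each organ has 1 array, and genes are called by a log2 ratio of at least 1 in size.

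All members are named; from the other lists, genes at least 2-fold on either array and up to 4 more with the largest ratios, from marker lists up to 3, and the 3 genes nearest to each member that was 2-fold. In lung, genes were named after their listing was seen. Of 41174 probes, 22951 were named by accession, 6659 by symbol and 3096 by synonym through a RefSeq table (GRCm38.p6), and 8468 kept the file's name. Of the marker lists, those for neurons and glia, fat, skeletal muscle, exocrine pancreas and endocrine islet had medians from -0.01 to 0.03 in liver and from -0.31 to -0.03 in stomach. Lung epithelium markers had 0.06 and 0.02 on these arrays. Python 3.11.15 with pandas 2.3.3 and numpy 2.4.6 was used.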

Additional observations from a re-analysis of the deposited data

Results flagged for a closer look

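A few probes lay on opposite sides of 0 in different organs, in liver and stomach each by more than its scanner error. No such error was used for lung. The difference was not tested, since each organ has 1 array. Igf2 probe A_51_P516826 had a log2(Cy5/Cy3) of 3.26 in liver, -0.50 in stomach and, in the authors' deposited table, 1.72 in lung. With median centring its stomach value was -0.25, within its error of 0.36. Gtl2 probe A_52_P391505 had 1.11 in liver and -1.38 in stomach. Gtl2 probe A_51_P455997 had 2.70 in liver, -2.35 in stomach and, in the authors' deposited table, -1.24 in lung. Rian probe A_52_P244 had 1.07 in liver and -0.55 in stomach, where median centring gave -0.31, within its error of 0.35.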

How the results depend on the processing

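No paired analysis was possible because each organ has 1 array, whose number only names it, and no test was made. Replicates could not be left out for the same reason. Under the 3 other scalings, 54 of 66 member probe values in liver and 57 of 69 in stomach moved by less than their error; the filters cannot change the ratio of a probe. Under all 6 alternatives, 49 of 60 gene values in liver and 48 of 60 in stomach moved by less than the spread of their probes, or the scanner error where there was 1 probe. With offset 16, 5 members were 2-fold Cy5-high in liver in place of 3 (Rian and Mirg were added), and over all genes 71 were Cy5-high in place of 39 and 57 Cy3-high in place of 18. Stomach then had 3 members Cy3-high in place of 2 (Mirg was added), 507 Cy3-high genes in place of 358, 358 Cy5-high genes in place of 221, and 1 of the other imprinted genes and neighbours in place of 0. With the scanner software's ratio, liver had 5 members, 541 genes and 3 imprinted genes or neighbours (1 before) Cy5-high and 420 genes Cy3-high. Stomach then had 5 members Cy3-high in place of 2, 1093 genes and 4 imprinted genes or neighbours Cy5-high, and 1049 genes (358 before) and 1 imprinted gene or neighbour Cy3-high. With median centring, liver had 110 genes and 2 imprinted genes or neighbours Cy5-high and 7 genes Cy3-high. Stomach then had 1 member (Cdkn1c) and 235 genes Cy3-high, and 1017 genes and 1 imprinted gene or neighbour Cy5-high. The cause was not tested. Of all 2-fold calls, the Cy5-high share in liver was 68.4%, and 55.5% with offset 16, 56.3% with the scanner ratio and 94.0% with median centring. In stomach it was 38.2%, and 51.0% and 81.2% with the last pair. Filtering both channels gave 1 imprinted gene or neighbour Cy5-high in stomach, and the brightest probe of a gene gave 2 Cy5-high and 1 Cy3-high. The authors' deposited table lists 5 member probes in lung, 8 in liver and 4 in stomach, at thresholds that differ. In lung 2 of the 23 are up and 3 down, in lists that hold 5.51% and 9.78% of all gene spots. The 8 in liver are all up and the 4 in stomach all down, in lists that hold 1.25% and 3.33%. With the signs turned as the dye labels give them, the lung values of that table are -1.72 and -1.92 for Igf2, 1.24 for Gtl2, 1.75 for Plagl1 and 1.91 for Cdkn1c. Dim probes such as those of Grb10 in liver have scanner errors over 1 log2 unit, so a 2-fold difference would not be detectable there.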
